A study of Mus musculus with 6 samples.

Results

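The genes described here are 10 widely used markers of the cells that build blood vessels, 6 of the endothelium (Flt1, Kdr, Cdh5, Pecam1, Cldn5 and Tek) and 4 of mural cells (Pdgfrb, Notch3, Acta2 and Cspg4). They were chosen by symbol as established markers and make up 10 of the 35976 genes listed for each culture. RNA was sequenced from 6 cultures of dorsal root ganglion (DRG) cells, prepared from lumbar ganglia of C57BL/6 mice of both sexes at 2 to 3 months of age. All cultures grew for 24 h after plating, and then received vehicle (3 cultures) or 15 µg/mL HC-HA/PTX3 (3 cultures) for another 24 h. HC-HA/PTX3 is a complex of hyaluronic acid, the heavy chain of inter-alpha-inhibitor and pentraxin 3 that is purified from human amniotic membrane. The cultures were enriched for neurons but were not sorted, so RNA of other ganglion cells was measured with that of the neurons. Libraries from total RNA depleted of ribosomal RNA held 42516054, 42617496 and 54117547 counts in vehicle replicates 1, 2 and 3, and 37998071, 37434266 and 38420247 counts in HC-HA/PTX3 replicates 1, 2 and 3.

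Endothelial cells line the vessel lumen, and mural cells (pericytes on capillaries, smooth muscle cells on larger vessels) wrap around them. Vascular endothelial growth factor (VEGF) and angiopoietins act on receptor tyrosine kinases of the endothelium, while endothelial platelet-derived growth factor (PDGF) B and Notch ligands recruit and maintain mural cells. The ganglion has a dense capillary bed, and dissociation carries vessel cells into culture. Several of these markers are not exclusive to vessels: Pdgfrb is also expressed by fibroblasts, Acta2 by myofibroblasts, Cspg4 by glial progenitors, Pecam1 by leukocytes and platelets, and Flt1 by monocytes.

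All 10 markers were detected in every culture, with 48 to 8086 counts per gene and culture, and all 10 passed the filter on low counts. A single marker, Acta2, fell after HC-HA/PTX3, and the other 9 did not pass the test. Levels are given in CPM, counts scaled to library size with the trimmed mean of M-values (TMM). Fold changes were fitted with edgeR's quasi-likelihood test within same-numbered cultures, and a called gene had a p-value under 0.05 after Benjamini-Hochberg adjustment and an absolute log2 fold change over 0.5. Of the 18277 genes tested, 8.70% were called in either direction, 5.38% lower and 3.32% higher, against 1 of 10 markers, which is close to that background. An unadjusted p-value under 0.05 was reached by 2 of the 10 markers and by 33.2% of all genes tested. In none of the 10 markers were the 3 treated cultures separate from the 3 vehicle cultures, whereas the groups did not overlap in 18.0% of all genes. The same edgeR test without the replicate number as a block called 0% of all genes (0 of 18277) and 0 of 10 markers, with an unadjusted p-value under 0.05 in 2089 genes and in 1 marker, Acta2. With the block, DESeq2 called 1211 genes and limma-voom 1569.

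The median log2 fold change was -0.03 over the 6 endothelial markers and -0.25 over the 4 mural markers, beside -0.01 over all genes tested. Leaving out replicate 3, the mural median was -0.03, and leaving out replicate 1 it was -0.41. The endothelial median was 0.07 without replicate 3 and -0.11 without replicate 2. The summed level of the endothelial markers was 235, 256 and 281 CPM in vehicle replicates 1, 2 and 3, and 236, 284 and 257 CPM in the treated cultures. The summed level of the mural markers was 311, 432 and 327 CPM with vehicle and 295, 374 and 172 CPM after treatment. The mural sum thus differed most in pair 3, with a log2 ratio of -0.93 beside -0.07 and -0.21 in pairs 1 and 2, and the endothelial sum had log2 ratios of 0.01, 0.15 and -0.13. In bulk RNA, fewer cells of a type and less RNA per cell cannot be told apart.

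Levels were compared between genes per kilobase of the longest annotated transcript. In the vehicle cultures, Acta2 led with 48.1 ± 9.87 CPM per kilobase (SD, n = 3), followed by Pdgfrb with 27.7 ± 6.09 and Cdh5 with 23.0 ± 1.74 CPM per kilobase. Pecam1 (13.1 ± 1.73), Kdr (10.9 ± 2.76) and Cspg4 (9.39 ± 1.46 CPM per kilobase) formed a middle group in which each neighbour overlapped the next. Flt1 was at 6.72 ± 0.446 and Notch3 at 4.04 ± 1.81 CPM per kilobase. Cldn5 and Tek were lowest, at 1.69 ± 0.112 and 1.57 ± 0.126 CPM per kilobase, and their ranges overlapped. Pdgfrb and Cdh5 also overlapped, while the other neighbours in this order did not. With the length of merged exons in place of the longest transcript, Flt1 and Notch3 exchanged places. Pecam1, Kdr, Cspg4 and Flt1 were then at 7.23, 7.15, 6.39 and 3.43 CPM per kilobase. For scale, the neuronal tubulin Tubb3 was at 651 ± 38.4 CPM per kilobase. By CPM, the markers ranked between 1521 (Pdgfrb) and 13290 (Cldn5) among all genes listed.

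**Figure D1:**
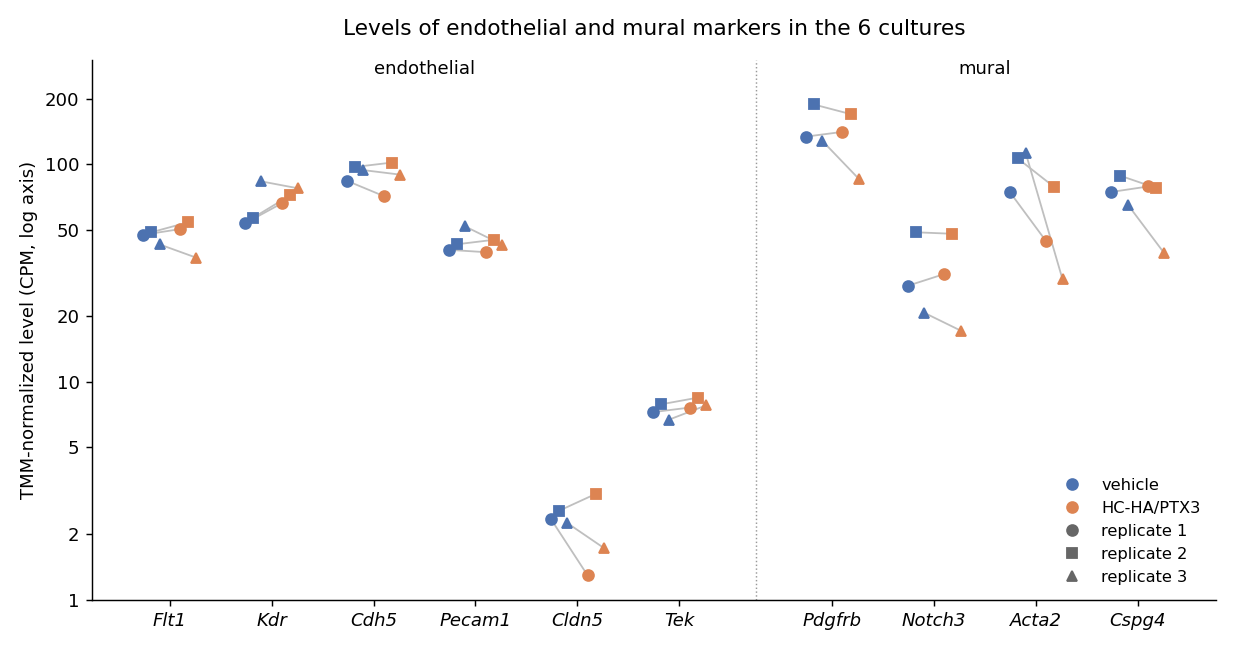
TMM-normalized level (CPM, log axis) of each endothelial and mural marker in the 3 vehicle and 3 HC-HA/PTX3 cultures; symbols mark the replicate number and grey lines join same-numbered cultures. Cldn5 and Tek lie lowest, and Acta2 is lower in the treated culture of all 3 pairs.

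Among the endothelial receptors, Flt1 and Kdr encode the VEGF receptors 1 and 2, and Tek encodes the angiopoietin receptor TIE2. Flt1 (mm10 chromosome 5, 147561604 to 147726011) was measured at 47.4, 48.7 and 42.8 CPM in vehicle replicates 1, 2 and 3 and at 50.4, 54.1 and 37.2 CPM after HC-HA/PTX3. Its treated values lay on both sides of the vehicle values. The fitted log2 fold change was 0.01 ± 0.08 (SE), with a 95% interval from -0.17 to 0.20 and an adjusted p of 0.936. Without replicate 1 or 2 it was -0.02 or -0.06.

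Kdr (chromosome 5, 75932827 to 75978458), the main signalling receptor for VEGF-A, was at 53.6, 56.8 and 83.4 CPM with vehicle and 66.2, 71.9 and 77.5 CPM after treatment. Vehicle replicate 3 was the highest of the 6 cultures, and the treated culture was higher in pairs 1 and 2 and lower in pair 3. The fitted value was 0.18 ± 0.09 (interval -0.02 to 0.38, adjusted p = 0.196). Without replicate 3 it was 0.34, with an adjusted p of 0.0231, under the fold threshold of 0.5; over all settings tried, the adjusted p ranged from 0.0231 to 0.813.

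Tek (chromosome 4, 94739289 to 94874976) was at 7.27, 7.89 and 6.71 CPM with vehicle and 7.62, 8.47 and 7.80 CPM after treatment. It was the 1 endothelial marker higher in the treated culture of all 3 pairs, but the groups overlapped. The fitted log2 fold change was 0.13 ± 0.12 (interval -0.13 to 0.39, adjusted p = 0.484).

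None of the 3 junction and adhesion genes was called. Cdh5 (chromosome 8, 104101625 to 104144511) encodes VE-cadherin, the cadherin of endothelial adherens junctions. It was at 83.9, 97.2 and 94.0 CPM with vehicle and at 71.4, 101.8 and 89.6 CPM after treatment, and both the lowest and the highest culture were treated ones. For Cdh5 the log2 fold change was -0.08 ± 0.07 (interval -0.24 to 0.08, adjusted p = 0.490). Pecam1 (chromosome 11, 106654217 to 106750628), which encodes the adhesion receptor CD31, was at 40.4, 42.9 and 51.8 CPM with vehicle and at 39.4, 45.0 and 42.8 CPM after treatment. Its log2 fold change was -0.08 ± 0.08 (interval -0.27 to 0.10, adjusted p = 0.532), and 0.03 without replicate 3.

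Cldn5 (chromosome 16, 18776847 to 18778262) encodes claudin-5, the tight junction protein of barrier endothelium. It had 48 to 126 counts per culture, the fewest of the 10 markers, so counting error weighed more on it than on the others. Its level was 2.35, 2.56 and 2.25 CPM with vehicle and 1.29, 3.06 and 1.73 CPM after treatment. The treated cultures spread above and below the narrow vehicle range. The log2 fold change of -0.29 ± 0.23 had an interval from -0.79 to 0.21 (adjusted p = 0.405). The interval reached past the fold threshold in the lower direction. Leaving out replicate 1 gave -0.05 and leaving out replicate 2 gave -0.61 (adjusted p = 0.935 and 0.153, the highest and lowest over all settings).

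Of 15 other endothelial genes tested, 1 was called higher and 1 lower, with a median log2 fold change of 0.00. Mmrn2, which encodes a matrix protein of the endothelial surface, rose from 11.2 ± 0.329 to 16.9 ± 1.34 CPM (SD, n = 3 each). It was higher in all 3 pairs without overlap of the groups (log2 fold change 0.60 ± 0.10, adjusted p = 0.00313). Ly6c1, an antigen of endothelial cells and some leukocytes, fell from 3.05 ± 1.61 to 1.97 ± 1.21 CPM (log2 fold change -0.67 ± 0.18, adjusted p = 0.0278), a call lost with DESeq2 (adjusted p = 0.0721) and without any 1 of the pairs (0.0677 to 0.116, with 0.00224 to 0.758 over all settings). Its level in replicate 3 was 0.302 times that in replicate 1 with vehicle and 0.234 times after treatment. Egfl7, an endothelial secreted protein named after its values were seen, had a log2 fold change of 0.41 (adjusted p = 0.00798), under the fold threshold. Eng, the TGF-beta co-receptor endoglin and the most abundant of the 15, was at 96.6 CPM with vehicle and 88.2 CPM after treatment (log2 fold change -0.11, adjusted p = 0.551).

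Ligands and partners of the endothelial markers gave no call. Of 7 VEGF and angiopoietin ligand genes, 0 were called by edgeR, with a median of -0.09 and an unadjusted p under 0.05 in 2. Vegfa, the most abundant, was at 95.2, 112 and 167 CPM with vehicle and at 79.3, 108 and 171 CPM after treatment. Its level was therefore highest in replicate 3 of both groups. Among the VEGF co-receptor and lymphatic receptor genes, 0 of 3 were called, with Nrp1 at a log2 fold change of -0.09 (adjusted p = 0.307). Of 8 genes for partners of cadherins and claudins at junctions, 0 were called and 4 had an unadjusted p under 0.05. Jam2 (log2 fold change -0.46, adjusted p = 0.00412) and Tjp1 (-0.24, adjusted p = 0.0227), named after their values were seen, passed the adjusted p but not the fold threshold. Jup, which encodes plakoglobin, had the highest vehicle mean of the 8 at 397 CPM (log2 fold change 0.20, adjusted p = 0.0607). Ctnnb1, also named after its values were seen, was close at 394 CPM and exceeded Jup in vehicle replicates 1 and 2.

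Markers of cells that share endothelial genes had lower summed CPM than the endothelial markers, from lists of other sizes. The 3 platelet markers summed to 5.22, 10.4 and 11.9 CPM with vehicle and 6.82, 11 and 8.41 CPM after treatment, led by Pf4, and 0 of 3 were called. The 3 lymphatic endothelial markers, led by Flt4, summed to 18.3, 20.8 and 15.7 CPM with vehicle and 19.1, 21.2 and 13.8 CPM after treatment, with 0 of 3 called. The 5 macrophage markers, led by Cd68, summed to 36.2, 46.2 and 37.2 CPM with vehicle and 31.4, 42.1 and 26.3 CPM after treatment. Of these 5, C1qa, a complement subunit, was called lower (log2 fold change -0.74 ± 0.20, adjusted p = 0.0302). This call was lost with ComBat-seq (adjusted p = 0.0516), without replicate 1 (0.126) and without replicate 3 (log2 fold change -0.41, adjusted p = 0.0953), with 2.72e-06 to 0.702 over all settings. The 4 hemoglobin genes summed to at most 0.559 CPM in any culture and did not pass the filter on low counts. Per kilobase, however, not all of these markers were low in the vehicle cultures. Cd68 (11.7), Pf4 (10.7) and C1qa (9.29 CPM per kilobase) lay between Pecam1 (13.1) and Flt1 (6.72). The other platelet, lymphatic and macrophage markers were at 1.885 CPM per kilobase (Csf1r) or less.

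**Figure D2:**
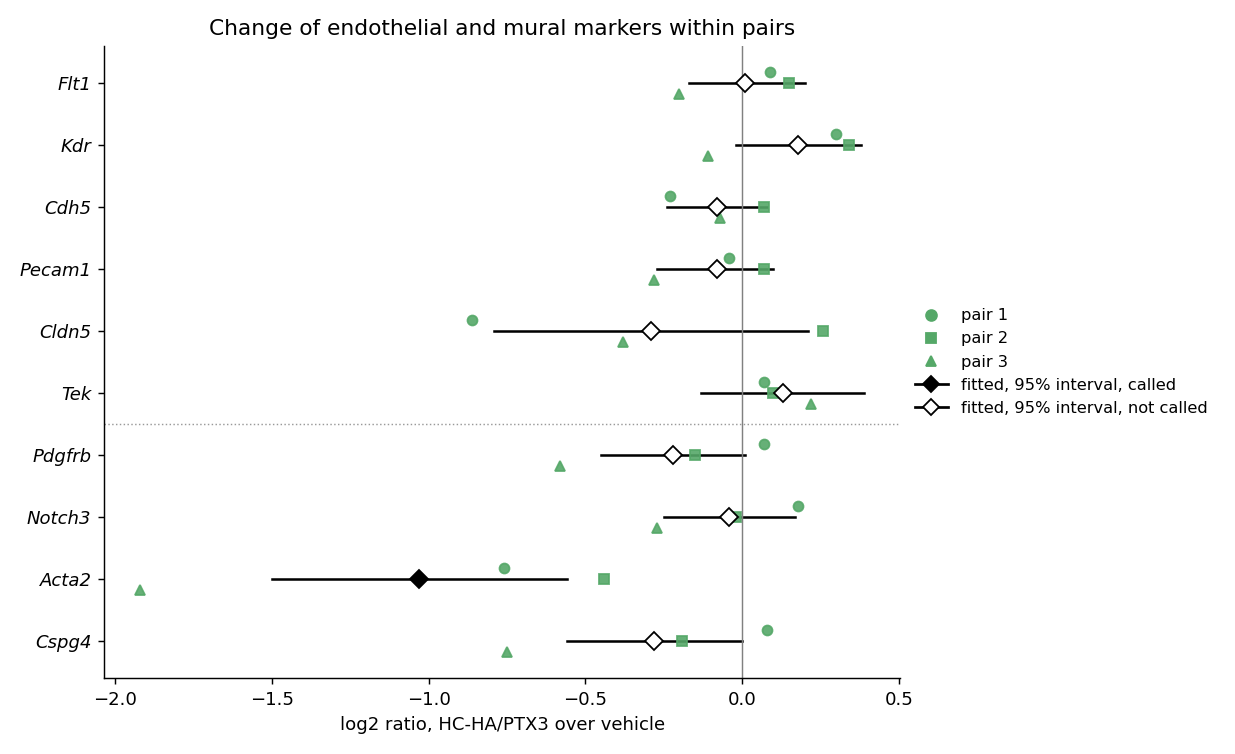
Log2 ratio of HC-HA/PTX3 over vehicle for each endothelial marker (above the dotted line) and mural marker (below it), in each same-numbered pair (green symbols) and as fitted over the 3 pairs (diamonds with 95% intervals, filled where called). Acta2 has the single filled diamond, at -1.03, and pair 3 gives the lowest ratio for all 4 mural markers.

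Among the mural markers, Pdgfrb, Notch3 and Cspg4 encode surface receptors and Acta2 a contractile protein. All 4 had their lowest treated level in replicate 3. Pdgfrb, the PDGF receptor beta that pericytes need for recruitment (chromosome 18), was at 133.9, 188.2 and 128.5 CPM with vehicle and at 140.8, 170.0 and 85.8 CPM after treatment. Treated replicate 3 lay below the vehicle range and the other two lay within it. Its log2 fold change was -0.22 ± 0.10 (interval -0.45 to 0.01, adjusted p = 0.170).

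Notch3 (chromosome 17, 32120820 to 32166852), the main Notch receptor of vascular smooth muscle, was at 27.6, 48.7 and 20.8 CPM with vehicle and at 31.3, 47.9 and 17.2 CPM after treatment. Replicate 2 was highest and replicate 3 lowest in both groups, so the replicates differed more than the treatments. The log2 fold change was -0.04 ± 0.09 (interval -0.25 to 0.17, adjusted p = 0.829), and 0.09 without replicate 3. Part of its exons, 488 bases, overlaps an antisense gene, and reads of the pair could have been split between them because the strand setting of the counting is not given in the sources used here.

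Cspg4 (chromosome 9, 56865033 to 56899870) encodes the NG2 proteoglycan. It was at 74.6, 88.8 and 65.3 CPM with vehicle and at 79.1, 77.7 and 38.9 CPM after treatment, and treated replicate 3 was the single one outside the vehicle range. The log2 fold change was -0.28 ± 0.12 (interval -0.56 to 0.00), and the unadjusted p of 0.0472 became 0.145 after adjustment. Leaving out replicate 3, the value was -0.04 for Cspg4 and -0.02 for Pdgfrb. Without replicate 1 they were -0.46 (adjusted p = 0.0498, under the fold threshold) and -0.36.

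Acta2 (chromosome 19, 34241090 to 34255590, minus strand) encodes smooth muscle alpha-actin, the actin isoform of contractile fibres in smooth muscle and myofibroblasts. Its level was 74.8, 106.4 and 112 CPM in vehicle replicates 1, 2 and 3 and 44.2, 78.5 and 29.6 CPM in the treated cultures. The treated culture was lower in all 3 pairs, which 28.7% of all genes tested also were, and treated replicate 2 lay above vehicle replicate 1, so that the groups overlapped. Acta2 fell from 97.8 ± 20.1 to 50.8 ± 25.1 CPM (SD, n = 3 each). Its fitted log2 fold change was -1.03 ± 0.21 (interval -1.5 to -0.56, adjusted p = 0.00873). The pairs gave log2 ratios of -0.76, -0.44 and -1.92, with the largest difference in pair 3. Without the replicate block the log2 fold change was -0.95 with an adjusted p of 0.383, and DESeq2 with the block gave -1.04 with an adjusted p of 0.0804. Without replicate 3 the value was -0.58 and the adjusted p 0.000492, and over all settings tried the adjusted p lay between 2.45e-33 and 0.383. Acta2 shares long stretches of coding sequence with the other muscle actins, so reads could have been split between these genes.

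In smooth muscle, serum response factor (SRF) drives genes of the contractile apparatus from CArG boxes, elements with an AT-rich centre near the start site. Because Acta2 fell together with genes of that apparatus, described next, the RefSeq promoter windows (GRCm38.p6, 250 bases before to 50 after the start) of Acta2, of the called contractile gene Myl9 and of Srf itself are shown. These 3 were picked after the matches were seen and all hold some, while those of the called genes Smtn and Tpm2 hold none. The windows are chr19:34255324-34255623 on the minus strand for Acta2, chr2:156775214-156775513 on the plus strand for Myl9 and chr17:46556113-46556412 on the minus strand for Srf, all printed 5′ to 3′. Capitals mark matches on either strand to the CArG box with 1 of its 6 central letters free.
Acta2: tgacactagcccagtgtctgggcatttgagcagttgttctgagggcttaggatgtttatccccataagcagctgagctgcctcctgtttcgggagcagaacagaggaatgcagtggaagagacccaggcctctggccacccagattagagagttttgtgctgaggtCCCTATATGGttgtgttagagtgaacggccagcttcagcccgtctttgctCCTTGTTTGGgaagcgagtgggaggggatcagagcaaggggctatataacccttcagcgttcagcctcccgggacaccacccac
Myl9: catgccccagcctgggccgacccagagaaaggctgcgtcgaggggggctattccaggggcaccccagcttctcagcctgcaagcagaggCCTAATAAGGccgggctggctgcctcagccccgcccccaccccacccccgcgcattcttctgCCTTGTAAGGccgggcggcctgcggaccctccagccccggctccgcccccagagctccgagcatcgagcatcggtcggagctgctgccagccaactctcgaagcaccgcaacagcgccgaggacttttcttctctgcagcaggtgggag
Srf: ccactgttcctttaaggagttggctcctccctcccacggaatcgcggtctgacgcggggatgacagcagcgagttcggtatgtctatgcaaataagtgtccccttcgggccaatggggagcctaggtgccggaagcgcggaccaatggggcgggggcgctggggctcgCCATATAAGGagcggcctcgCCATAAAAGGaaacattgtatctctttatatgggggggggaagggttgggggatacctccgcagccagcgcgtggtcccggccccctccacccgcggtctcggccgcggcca
The strict CArG box matched once in the Myl9 window and at 2 places in the Srf window, in none for Acta2, and in 1.63% of 32851 promoter windows of the same length. The form with 1 central letter free, a motif added after the data were seen, matched at 2 places in each of the 3 windows and in 9.98% of all windows. Windows were on hand for 7 of the 10 markers and 7 of the 11 contractile genes. Those of Kdr and Tek held 1 match each to the freer form, while those of Cnn1, Tpm1 and Lmod1 also held none. A match describes these letters only.

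Of the 11 other contractile genes tested, 5 fell and 0 rose, beside 5.38% called lower and 3.32% called higher over all genes tested. The median log2 fold change was -0.58 beside -0.01 over all genes. All 11 had a fitted value below 0, as did 9348 of all 18277 genes tested. In all 3 pairs, 8 of the 11 were lower, against 28.7% of all genes tested. Without regard to the fold, 6 of the 11 had an adjusted p under 0.05 in the lower direction, against 11.5% of all genes tested. The call was lost for all 5 without the replicate block (0 of 11, with an unadjusted p under 0.05 in 4), and DESeq2 with the block called 3. Without replicate 1, 2 of the 11 were called, Myl9 and Actg2.

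Myl9, the regulatory light chain of smooth muscle myosin, was at 18.3, 20.7 and 17.2 CPM with vehicle and at 6.95, 14.8 and 4.24 CPM after treatment. All treated cultures lay below all vehicle cultures, as for Actg2 and Smtn among the 11. Over all genes tested, the groups did not overlap, in either direction, in 18.0%. Myl9 had a log2 fold change of -1.26 ± 0.22 (adjusted p = 0.00431). Actg2, the gamma actin of enteric smooth muscle, was at 2.97, 3.98 and 3.86 CPM with vehicle and at 1.51, 2.40 and 0.559 CPM after treatment (log2 fold change -1.37 ± 0.32, adjusted p = 0.0144). The size of both falls depended on the pairs used: without replicate 3 the values were -0.90 for Myl9 and -0.83 for Actg2, and without replicate 2 they were -1.70 and -1.79.

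Tagln, which encodes the actin-binding protein transgelin, was at 79.1, 96.6 and 95.2 CPM with vehicle and at 40.3, 82.6 and 26.9 CPM after treatment. As for Acta2, treated replicate 2 overlapped the vehicle range and treated replicate 3 was lowest. Tagln had a log2 fold change of -0.99 ± 0.22 (adjusted p = 0.0114), with an adjusted p of 0.104 in DESeq2 and 0.0594 without replicate 1, over a range of settings from 1.18e-30 to 0.454. Its log2 fold change was -0.58 without replicate 3 and -1.40 without replicate 2. Smtn, which encodes smoothelin of contractile smooth muscle, was at 49.6, 60.6 and 57.0 CPM with vehicle and at 27.4, 48.1 and 36.6 CPM after treatment (log2 fold change -0.60 ± 0.10, adjusted p = 0.00273; -0.48 to -0.75 on the log2 scale when 1 pair was left out). Exons of Tagln overlap genes on the opposite strand over 1241 and 108 bases, and those of Smtn over 714 and 39 bases.

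The fifth call, Tpm2 (a tropomyosin of the list, described here after its values were seen), had a log2 fold change of -0.58 ± 0.18 (adjusted p = 0.0468). This call was lost in 9 of the 11 other settings. The value was -0.30 without replicate 3 and -0.94 without replicate 2, and pair 2 had a log2 ratio of 0.09. Srf, of the same list and also described after its values were seen, was at 40.3, 49.4 and 50.8 CPM with vehicle and at 33.3, 42.7 and 33.4 CPM after treatment (log2 fold change -0.36 ± 0.09, adjusted p = 0.0184), under the fold threshold. Tpm1, the most abundant of the 11, was at 522, 456 and 522 CPM with vehicle and 417, 484 and 530.3 CPM after treatment (log2 fold change -0.07, adjusted p = 0.583). Tpm1 is expressed in many cell types.

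**Figure D3:**
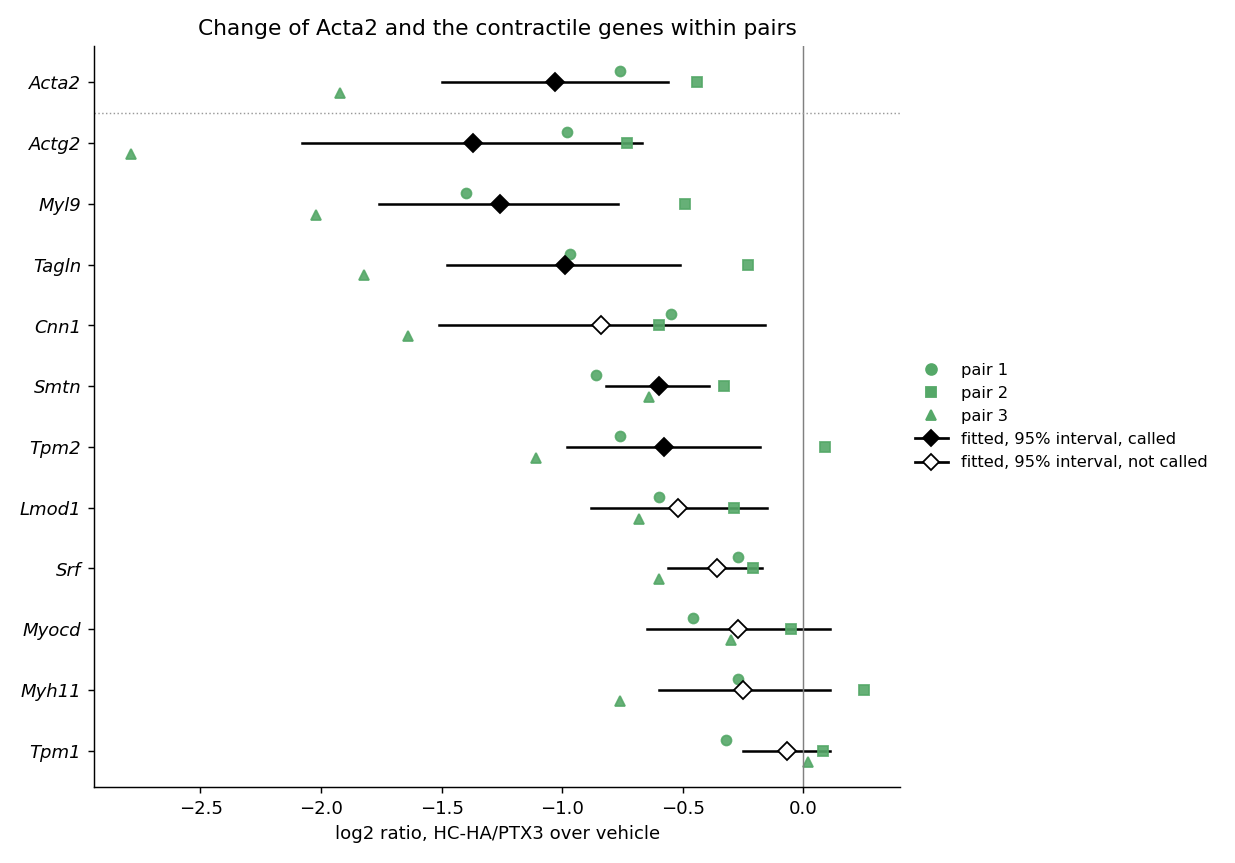
Log2 ratio of HC-HA/PTX3 over vehicle for Acta2 (above the dotted line) and the 11 other contractile genes, in each same-numbered pair (green symbols) and as fitted over the 3 pairs (diamonds with 95% intervals, filled where called). All fitted values are below 0, from -1.37 for Actg2 to -0.07 for Tpm1.

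Other pericyte genes moved in both directions. Of 11 tested, 1 was called higher and 3 lower, and the median log2 fold change was 0.15. Abcc9, a subunit of the potassium channel of pericytes, rose from 17.8 ± 8.45 to 24.9 ± 5.81 CPM (log2 fold change 0.57 ± 0.13, adjusted p = 0.0143), a call lost without replicate 1 (adjusted p = 0.0815) or without replicate 3 (log2 fold change 0.42), with an adjusted p of 1.93e-05 to 0.669 over all settings. Ndufa4l2, a mitochondrial protein induced by hypoxia, fell from 3.40 ± 1.80 to 1.75 ± 0.918 CPM (log2 fold change -0.98 ± 0.19, adjusted p = 0.00735; 0.0658 without replicate 2, and 4.85e-06 to 0.558 over all settings). The transcription factor genes Foxf2 (log2 fold change -0.57 ± 0.18, adjusted p = 0.0458) and Tbx18 (-0.73 ± 0.18, adjusted p = 0.0211) also fell. Neither call held throughout. Foxf2 had an adjusted p of 0.079 to 0.204 when any pair was left out. It had 0.0574 with upper-quartile scaling, 0.0527 with raw library sizes and 0.137 with DESeq2. Tbx18 had an adjusted p of 0.0775 and 0.111 without replicates 2 and 3. Without replicate 3 the log2 fold change was -0.47 for Foxf2 and -0.48 for Tbx18, under the fold threshold. Over all settings the adjusted p ranged from 0.00564 to 0.456 for Foxf2 and from 0.000183 to 0.476 for Tbx18. Rgs5, a regulator of G protein signalling and the most abundant of the 11, was at 178, 156 and 110.0 CPM with vehicle and at 191, 181 and 122 CPM after treatment. It was higher in all 3 pairs but did not pass the test (log2 fold change 0.15 ± 0.06, adjusted p = 0.104).

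Of 5 PDGF ligand and receptor alpha genes, 1 was called lower and 0 higher, with a median of -0.30. Pdgfc, a ligand of PDGF receptor alpha, fell from 8.14 ± 1.42 to 4.76 ± 0.969 CPM (log2 fold change -0.78 ± 0.14, adjusted p = 0.00437), lower in all 3 pairs without overlap of the groups. Pdgfa was the most abundant, at a log2 fold change of -0.01 (adjusted p = 0.955).

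Of 7 Notch receptor and ligand genes other than Notch3, 1 was called higher and 0 lower, with a median of -0.14. The ligand gene Dll1 rose from 0.536 ± 0.162 to 1.14 ± 0.162 CPM (log2 fold change 1.09 ± 0.27, adjusted p = 0.0179), a low level whose call was lost without any 1 pair (adjusted p of 0.0508 to 0.0900, with 0.00138 to 0.290 over the settings that gave one; DESeq2 gave none). Notch1, the most abundant, had a log2 fold change of -0.29 (adjusted p = 0.0105), under the fold threshold. Of 7 Notch target and modulator genes, 3 were called lower and 0 higher, with a median of -0.48. The hairy-related repressors Hey2 and Heyl had log2 fold changes of -0.61 ± 0.09 (adjusted p = 0.00168) and -0.77 ± 0.12 (adjusted p = 0.00215), and Lfng, a glycosyltransferase that modifies Notch receptors, -0.84 ± 0.13 (adjusted p = 0.00263). Each was lower in all 3 pairs. The replicates differed more than the treatments: Heyl was at 81.3, 75.8 and 23.7 CPM with vehicle and at 52.9, 52.0 and 10.1 CPM after treatment. Rbpj, the DNA-binding partner of Notch and the most abundant of the 7, had a log2 fold change of -0.09 (adjusted p = 0.359).

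The summed levels of fibroblast and of proliferation markers were lower in the treated culture of all 3 pairs, as Acta2 was, and so was the macrophage sum given above (pair log2 ratios of -0.21, -0.14 and -0.50), whose 5 genes had a median of -0.40. The 6 fibroblast markers summed to 1469, 1415 and 629 CPM with vehicle and 765.5, 844.5 and 219 CPM after treatment, with pair log2 ratios of -0.94, -0.74 and -1.52. Of these 6, 2 were called lower, and the median was -0.28. The called ones were the collagen genes Col1a1 (log2 fold change -1.62 ± 0.17, adjusted p = 0.000547) and Col1a2 (-1.11 ± 0.18, adjusted p = 0.00270). With vehicle means of 511 and 493.5 CPM beside a mean sum of 1171 CPM, these collagen genes made up most of the fibroblast sum. Col1a1 was the most abundant by vehicle mean, while over all cultures Col1a2 had the higher mean, 380 beside 351 CPM. All 6 markers had a fitted value below 0, as did 9348 of all 18277 genes tested. In all 3 pairs, 5 of the 6 were lower, against 28.7% of all genes tested. The 4 not called, named after their values were seen, were Dcn (-0.09), Pi16 (-0.23), Pdgfra (-0.25) and Lum (-0.31), with adjusted p of 0.327, 0.637, 0.0717 and 0.185. All 3 proliferation markers fell, Mki67 by 1.72, Top2a by 1.68 and Ccnb1 by 1.44 on the log2 scale (adjusted p = 0.00104, 0.00103 and 0.00112). They summed to 600, 403 and 176 CPM with vehicle and 196, 198 and 29.4 CPM after treatment, led by Mki67. As for Acta2, the log2 ratios of all 3 sums were largest in size in pair 3 and smallest in pair 2. The same order, also lower in all 3 pairs, was seen in sums of the 2 Notch lists. These were the Notch receptors and ligands (-0.17, -0.09 and -0.31) and the Notch targets and modulators (-0.34, -0.29 and -0.35). Not every sum that was lower in all 3 pairs had this order. The VEGF and angiopoietin ligand sum had log2 ratios of -0.20, -0.05 and -0.06 in pairs 1, 2 and 3. The contractile sum had -0.44, -0.02 and -0.28. Tpm1 held most of that sum, with a vehicle mean of 500 CPM beside 769 CPM, and had -0.32, 0.08 and 0.02. Among the called contractile genes, Tagln (-0.97, -0.23 and -1.82) and Myl9 (-1.40, -0.49 and -2.02) had the order of Acta2. So did Actg2 (-0.98, -0.73 and -2.79) and Tpm2 (-0.76, 0.09 and -1.11), while Smtn (-0.86, -0.33 and -0.64) did not. Each fibroblast and proliferation marker had at least 14 counts in every culture. Their part in the fall of Acta2 and the contractile genes was not tested.

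Markers of neurons and satellite glia gave no call. The 7 neuron markers, led by Tubb3, summed to 5360, 4402 and 4798 CPM with vehicle and 5619, 4706 and 5453 CPM after treatment, with 0 of 7 called by edgeR (unadjusted p under 0.05 in 3) and a median of 0.14. The 7 satellite glia markers, led by Apoe, summed to 2175, 1259 and 505 CPM with vehicle and 2060, 1274 and 508 CPM after treatment, with 0 of 7 called (unadjusted p under 0.05 in 4). Without regard to the fold, 2 of the 7 had an adjusted p under 0.05 in the lower direction, Fabp7 (log2 fold change -0.40) and Kcnj10 (-0.34), and 1 in the higher, Glul (0.28); they are named after their values were seen. The sum was several times higher in replicate 1 than in replicate 3 of both groups. The summed endothelial level, in comparison, was 1.20 times as high in replicate 3 as in replicate 1 with vehicle and 1.09 times after treatment.

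**Figure D4:**
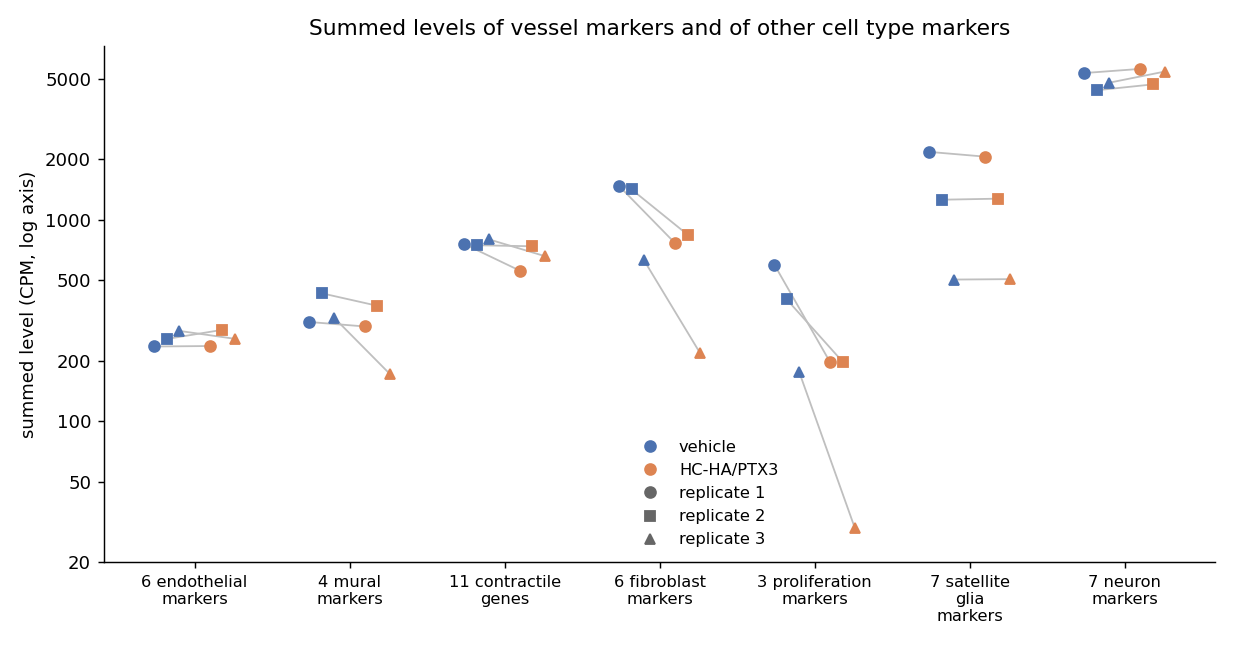
Summed level (CPM, log axis) of the endothelial and mural markers, the contractile genes and the markers of 4 other cell groups in each culture; symbols mark the replicate number and grey lines join same-numbered cultures. Fibroblast and proliferation sums are lower in every treated culture than in its vehicle partner, the endothelial sum stays between 235 and 284 CPM, and the satellite glia sum differs by replicate number.

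The genes whose level followed the most abundant endothelial and mural marker per kilobase most closely were ranked among 15000 genes with a mean of at least 1 CPM, by Pearson's r of log2 CPM over the 6 cultures, as a description. For Acta2 they were Lox (r = 0.996), Has2 (r = 0.993) and Sall2 (r = 0.992). Lox encodes the collagen cross-linking enzyme lysyl oxidase and was called lower (log2 fold change -0.77, adjusted p = 0.0116), as was Has2, a hyaluronan synthase (-0.87, adjusted p = 0.00741), while Sall2, a zinc finger factor, was not (-0.24, adjusted p = 0.103). Lox was at 37.6, 44.5 and 49.9 CPM with vehicle and at 24.9, 36.2 and 18.4 CPM after treatment, and treated replicate 3 was the lowest culture for both genes. For Cdh5 they were Bms1 (r = 0.991), D930048N14Rik (r = 0.989) and Dnph1 (r = 0.988), none of them called. The next gene in each ranking was close behind, at 0.990 for Acta2 and 0.987 for Cdh5.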

How the data were processed

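The authors deposited raw counts per gene, unnormalized whole numbers for 6 cultures. Per the methods, read pairs were aligned to mm10 with HISAT2 and counted with featureCounts; per the file headers the aligner was STAR. Versions and the strand setting are not given in the sources used here.

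The counts were analysed in R 4.3.3 with edgeR 4.0.16 (filterByExpr, TMM scaling, glmQLFit and glmQLFTest, replicate number as block), limma 3.58.1, DESeq2 1.42.0 and sva 3.50.0, and the fits were tested on simulated data. SE is the absolute log2 fold change divided by the square root of F. The block stands in for the batch term of the study's methods. As a check of the pairing, each culture was centred on its group mean over 18277 genes: r was 0.631, 0.536 and 0.774 between cultures sharing a number (limit 0.1) and -0.613 to 0.148 between the rest. The labels do not say that cultures came from separate animals, so p-values measure the spread between these cultures. Replicates differed by 34.1 to 120 times counting error, so none were duplicates. CPM used the summed counts of the tested genes as library size; 1 CPM stood for 37.1 to 56.0 counts, and 0 counts would allow up to 0.0808 CPM (3 counts, counting error only).

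Lengths and positions are from GENCODE M21, promoters from RefSeq (GRCm38.p6). Named genes are the 10 markers, each list's called genes (at most the 4 with the largest change) and its most abundant gene by vehicle mean. Other genes of the lists are marked as named or described after their values were seen. The promoter windows and the ranking by r name further genes. Members and lists were chosen with earlier results of these data known. Alternatives were no block, 2 other filters, 2 other scalings, DESeq2, limma-voom, ComBat-seq then limma, no fold threshold, and each pair left out. The 10 min arm was not analysed here, and the result of 1 further marker list, whose genes are counted among the 110 listed genes, is not reported here.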

Additional observations from a re-analysis of the deposited data

How the results depend on the processing

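Without the replicate block, 0 of all genes, 0 of 10 markers, 0 of 110 listed genes and 0 of 11 contractile genes were called, against 1591, 1, 23 and 5 in the paired fit. DESeq2 with the block called 0 markers and 3 contractile genes, and without a fold threshold 3505 genes and 35 listed genes were called. Leaving out 1 pair gave 878 to 1571 called genes and 2 to 5 contractile genes. It also turned the sign of Flt1 (-0.06 to 0.14), Pecam1 (-0.16 to 0.03) and Notch3 (-0.14 to 0.09), each within its interval in the full fit. The cause was not tested, apart from the fewer cultures.

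Of 110 fold changes of the markers under these settings, 4 turned in sign, 2 lost the call, both of Acta2, and the other 104 kept their call or lack of one. Among those 104, the adjusted p alone passed 0.05 for Kdr without replicate 3 (0.0231), for Pdgfrb and Cspg4 without the low-count filter (0.0121 and 0.00333) and for Cspg4 without replicate 1 (0.0498), and the fold alone passed 0.5 for Cldn5 without replicate 2 (-0.61). Of 252 values for the other called genes of the lists, 191 kept their call, 61 lost it and 0 turned; DESeq2 gave no adjusted p for Dll1, which is left out of these. The share of called genes that were lower was 61.8%, 70.3% with DESeq2, 51.4% with ComBat-seq (2219 genes called) and 71.8% without replicate 1 (878 genes). All 20 marker levels under other scalings stayed within 1 SD. Per kilobase of merged exons, chosen after seeing the data, Flt1 was at 3.43, Kdr at 7.15, Pecam1 at 7.23 and Cspg4 at 6.39 CPM per kilobase. With 48 to 126 counts, Cldn5 was the marker most limited by depth.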
